A study of Mus musculus with 3 samples.

Results

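The 7 genes described here are the MHC class II genes Cd74, H2-Aa, H2-Ab1, H2-Eb1, H2-DMa and H2-DMb1 and their regulator Ciita, out of 32285 genes counted in single cells of mouse back skin. They were chosen with their levels in these libraries known, so their levels, and every ratio between cell classes below, are a description with no test. Transcripts were measured by scRNAseq (10X Genomics 3′ version 3 chemistry) in 3 libraries of untreated wildtype skin, 1 per age: P38 (male, hair follicles in catagen), 6 months (female, mostly anagen) and 12 months (male, telogen and anagen mixed). The methods of the study describe flow-sorted epithelial cells of Krt14-H2B-GFP mice, in which the Krt14 promoter drives a green nuclear label, while the labels describe whole dissociated skin and mention no sort. The text of the study ties the near absence of non-epithelial cells from the youngest sample to that sort, and the older samples held such cells. Age thus came together with sex, hair cycle stage, sequencing depth and the make-up of the sorted cells, and P38 also with another Cell Ranger version in the file headers. These cannot be told apart, and with 1 library per age no value has a replicate check.

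MHC class II molecules present peptides on the cell surface to CD4+ T cells. H2-Aa and H2-Ab1 encode the 2 chains of I-A, and H2-Eb1 encodes the beta chain of I-E. Cd74, the invariant chain, fills the groove of new molecules, and H2-DMa and H2-DMb1 encode the editor that exchanges the remnant of Cd74 for peptide. Ciita is the coactivator that switches these promoters on. It is active in dendritic cells, B cells and macrophages, and interferon gamma induces it in keratinocytes. In skin, Langerhans cells of the epidermis are the best known class II positive cells.

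Keratinocytes were taken as cells in which Krt14 and Krt5, the keratins of basal keratinocytes, together made up 0.2% of UMIs or more. A UMI (unique molecular identifier) marks 1 captured transcript. A cell was kept where its detected genes numbered above 200 but below 5000 and mitochondrial transcripts took less than 15% of its UMIs. This left 2109 cells from 2397 barcodes in the P38 library, 3502 from 4761 in the 6 months library and 3240 from 5421 in the 12 months library. With the same limits the study states as many cells for P38, slightly fewer for 12 months and far fewer for 6 months. Which cells of 6 months the study left out is not known, and all values of that age here include them. Among them were 1930, 2751 and 2151 Krt14+Krt5 high cells, with a median of 15937, 606 and 12028 UMIs. All 7 keratinocyte markers (Krt14, Krt5, Krt15, Krt17, Krt79, Epcam and Cdh1) were detected in these cells in each library. Keratinocytes with a UMI of both Sostdc1 and Aldh3a1, genes used here as upper follicle markers, numbered 210, 145 and 556. Myeloid cells, with a UMI of the adaptor gene Tyrobp, no Cd3 UMI and keratins below the gate, numbered 5, 64 and 91. At 6 and 12 months all 16 myeloid and Langerhans markers were detected in them, at a summed 9705 and 10585 CPM (UMIs of a gene as a share of all UMIs of the class, in parts per 1e6), including Cd207, the Langerhans lectin, at 2950 and 4364 CPM. The 5 cells of P38 held 0 UMIs of Cd207 and of Lyz2, and no CPM is given for classes of fewer than 20 cells. The 6 upper follicle markers, Sostdc1 and Aldh3a1 among them, summed to 2530 CPM in Sostdc1 and Aldh3a1 positive and 2184 in other keratinocytes of P38. They summed to 2406 and 1114 at 6 months and to 2784 and 827 at 12 months. The 4 bulge markers (Cd34, Krt24, Lhx2 and Sox9) summed to 746 and 1232, 545 and 1004, and 427 and 284. Whether the positive class holds like cells at each age was not tested. Between 0.15% and 0.25% keratin UMIs, 24, 110 and 73 cells lay below the gate and 29, 29 and 69 at or above it. Barcodes also found in another library numbered 4, 84 and 82, and no doublet caller was run.

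The 5 H2 genes lie on chromosome 17 (GRCm38), all within the MHC: H2-DMa at 34119541 to 34139101, H2-DMb1 at 34153072 to 34160230, H2-Ab1 at 34257689 to 34269419 and H2-Eb1 at 34305867 to 34316674 on the plus strand, and H2-Aa at 34282744 to 34287823 on the minus strand. Class II promoters are known for an X box, bound by the RFX complex, and a Y box (an inverted CCAAT), bound by NF-Y. The promoters of H2-Aa and H2-Eb1 are shown because, of the members with a promoter in the reference table, these chains had the largest ratios between keratinocyte classes at P38. Both are the 140 bases before the start site in RefSeq (GRCm38.p6), chr17:34287824-34287963 on the minus strand and chr17:34305727-34305866 on the plus strand, and capitals mark matches to AGNNACNGA, part of the X box, and to GATTGG, the Y box, on either strand.
H2-Aa: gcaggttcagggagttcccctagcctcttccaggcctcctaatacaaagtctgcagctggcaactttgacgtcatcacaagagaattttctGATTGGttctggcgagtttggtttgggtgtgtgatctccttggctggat
H2-Eb1: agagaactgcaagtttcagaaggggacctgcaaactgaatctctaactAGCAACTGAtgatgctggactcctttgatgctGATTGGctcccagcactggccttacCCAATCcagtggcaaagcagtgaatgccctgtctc

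Both promoters held a Y box on the strand of the gene, 49 bases before the start in H2-Aa and 60 in H2-Eb1. H2-Eb1 also held the X box letters at 92 bases and a Y box on the other strand at 35. H2-DMb1 held AGTAACTGA at 95 bases, AGTCACTGA on the other strand at 163 and GATTGG at 62, and 119 of the 140 bases before its start lie in an annotated exon. The second start of H2-DMa held a Y box alone, at 199. Promoters of 4 of the 7 genes were in the table, and 250 bases before each start were searched on both strands. The X box letters stood in 14.7% of all 32851 promoters, the Y box in 14.6% and both in 2.05%. These are matches of letters, which say nothing of binding.

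Class II transcripts lay in different cells at P38 than at the later ages. Of the 1296 UMIs of Cd74, H2-Aa, H2-Ab1 and H2-Eb1 (their sum is called the class II sum below) in kept cells of P38, 87.6% came from Krt14+Krt5 high cells, which made up 91.5% of the cells. At 6 months 91.7% of 47626 UMIs came from the 64 Tyrobp positive cells and 6.1% from Krt14+Krt5 high cells. At 12 months 91.7% of 76426 UMIs came from the 91 Tyrobp positive cells and 1.77% from Krt14+Krt5 high cells. P38 thus had few myeloid cells, and keratinocytes held most of a small total there. The share of each class rests on which cells were sorted, so age and sort cannot be told apart in this contrast.

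In Krt14+Krt5 high cells the class II sum stood at 36.6 CPM at P38 (exact Poisson 95% interval 34.5 to 38.8), 176 at 6 months (170 to 182) and 50.4 at 12 months (47.8 to 53.2). All intervals here cover counting error only, and do not allow for single cells that hold many of the UMIs. The 6 months value rests on few cells: without the cell with the most class II UMIs it was 123 CPM. Without cells holding a UMI of Tyrobp, Ptprc, Fcer1g, Cd3d, Cd3e or Cd3g (called immune gene UMIs below), it was 101 at 6 months, 36.2 at P38 and 46.2 at 12 months. The level in keratinocytes was far below that of myeloid cells, which held 73697 CPM at 6 months and 72757 at 12 months, a log2 ratio of 8.71 (8.66 to 8.76) and 10.50 (10.42 to 10.57). Cells that should largely lack these genes held levels of the same order as keratinocytes. Cd3 positive cells held 272 CPM at 6 months (50 cells, with 28 of 65 UMIs in 1 cell) and 71.3 at 12 months (44 cells). Cells high in the fibroblast genes Dcn and Col1a1 held 86.3 (106 cells) and 29.2 (219 cells) at these ages. The Cd3 positive cells are no clean background. They also held 29 UMIs of Tyrobp at 6 months, and 9127 CPM of the 4 fibroblast markers at 12 months.

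A class II UMI was found in 15.2% of Krt14+Krt5 high cells at P38 (exact Clopper-Pearson 95% interval 13.7 to 16.9), in 37.7% at 6 months (35.8 to 39.5) and in 32.8% at 12 months (30.8 to 34.9). After thinning each cell to 2000 UMIs, the shares were 4.04%, 6.12% and 7.59%, with 73, 1673 and 95 shallower cells left out. At 6 months the thinned share in Cd3 positive cells was 12.2% and in Dcn and Col1a1 high cells 10.1% (24% and 27.4% before thinning, medians of 4548 and 8537.5 UMIs), from 6 of 49 and 10 of 99 cells. The share in keratinocytes (4.77% to 7.72%) was not above these, so it is not read as expression at this age. At 12 months these shares were 11.4% and 4.19% (25% and 19.2% before thinning, medians of 4586.5 and 10630 UMIs), on either side of the keratinocytes. P38 had 2 and 1 such cells, so its background could not be measured in this way.

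Sostdc1 and Aldh3a1 positive keratinocytes held more of the class II sum than other keratinocytes at P38, and not at 12 months. At P38 the sum stood at 111 CPM (101 to 122) in the 210 positive cells and 25.4 (23.5 to 27.4) in the 1720 others, a log2 ratio of 2.13 (1.95 to 2.30). A class II UMI was found in 25.2% of the positive and 14.0% of the other cells, and in 9.52% and 3.34% after thinning, with medians of 18827 and 15555 UMIs. The difference in CPM was as large without cells with an immune gene UMI (2.15) and was 1.86 without the cell with the most class II UMIs. It rested on few cells: 11 of the 210 positive cells held 350 of their 449 class II UMIs, and 157 held 0. Of the 1720 others, 13 held 338 of 686. Over cells with fewer than 10 class II UMIs, the sum stood at 26.0 CPM in positive and 13.0 in other cells. At 12 months the sum stood at 41.8 CPM (37.1 to 47.0) in 556 positive and 53.2 (50.1 to 56.5) in 1595 other cells, a log2 ratio of −0.35 (−0.54 to −0.16). That direction depended on the keratin gate: at 0.1% the ratio was 1.01, since 1 cell with 803 class II UMIs, 5 of Tyrobp and 35 of Cd207 then entered the positive class.

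At 6 months 1 cell decided the same comparison. The sum stood at 429 CPM in 145 positive and 135 in 2606 other keratinocytes, a log2 ratio of 1.67 (1.56 to 1.78). However, 880 of the 990 class II UMIs of the positive cells came from 1 cell of 13770 UMIs. The same cell held 15 of the 17 Tyrobp UMIs and 57 of the 58 Cd207 UMIs of this class. Without the cell of 880 UMIs the log2 ratio was −1.49, and without all cells with an immune gene UMI it was −1.30 (−1.61 to −1.0). With immune gene positive cells set aside, the level of Sostdc1 and Aldh3a1 positive keratinocytes was above that of others at P38 and below it at 6 and 12 months. At 6 months the positive cells then had a median of 15746 UMIs and the others 587, and the part of depth was not tested. The difference between ages was not tested, as each age is 1 library.

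Myeloid transcripts were counted in the same classes. The 16 myeloid and Langerhans markers summed to 10.1 CPM in Sostdc1 and Aldh3a1 positive and 5.67 in other keratinocytes at P38 (5 and 11 of 16 detected), to 58.5 and 26.0 at 6 months (8 and 16) and to 13.3 and 12.8 at 12 months (9 and 12). At P38 Lyz2, Itgax, C1qb, C1qc and Mrc1 were at 0 in both classes, and Cd207 had 1 and 2 UMIs. The 4 B cell markers stayed between 0 and 0.49 CPM in all of these classes. The 6 T cell markers summed to 13.9 CPM in positive and 11.8 in other keratinocytes of P38. They summed to 45.5 and 47.7 in those of 6 months, and to 59.1 and 21.6 in those of 12 months. Without immune gene positive cells, 54 of the 56 T cell marker UMIs of positive cells remained at P38, all of Trbc2. At 12 months 375 of 394 remained, of Trbc2 and Cd2. Of the myeloid UMIs of positive cells at P38, 33 of 41 remained, all of Cd68 and Cd83. The sums of P38 and 12 months are therefore not read as T cell or myeloid content. At 6 months 26 of the 135 myeloid UMIs of positive cells remained. Of the T cell marker UMIs there, 74 of 105 remained in positive and 272 of 677 in other keratinocytes. The sums of 6 months thus came in part from cells with an immune gene UMI.

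**Figure D1:**
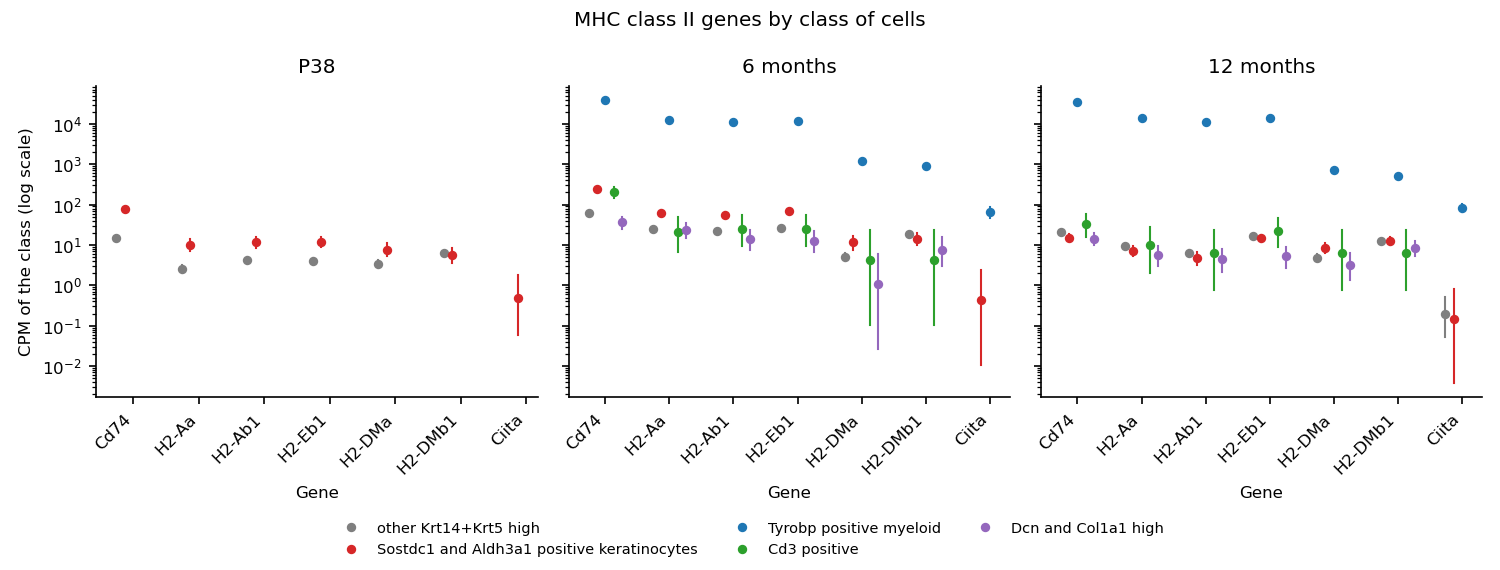
CPM of each gene (log scale) in 5 classes of cells, 1 panel per library, with exact Poisson 95% intervals of counting error; classes under 20 cells and values of 0 are not drawn. At P38 Cd74 sits at 77.5 CPM in Sostdc1 and Aldh3a1 positive keratinocytes and at 14.7 in the others, while at 6 and 12 months the myeloid cells lie far above every other class.

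The 3 peptide-presenting chains were all higher in Sostdc1 and Aldh3a1 positive keratinocytes at P38. H2-Aa, the alpha chain of I-A, stood at 10.1 CPM in Sostdc1 and Aldh3a1 positive and 2.59 in other keratinocytes of P38, at 62.8 and 24.3 at 6 months and at 7.19 and 9.40 at 12 months. Its log2 ratio was 1.97 (1.38 to 2.54) at P38 and −0.39 (−0.87 to 0.08) at 12 months. H2-Ab1, the beta chain of I-A, stood at 11.6 and 4.19 CPM at P38, at 54.6 and 22.5 at 6 months and at 4.80 and 6.33 at 12 months, with log2 ratios of 1.47, 1.28 and −0.40. The interval of H2-Ab1 was 0.95 to 1.98 at P38, and at 12 months it included 0 (−1.01 to 0.17). H2-Eb1, the beta chain of I-E, stood at 11.9 and 3.93 CPM at P38, at 67.5 and 26.5 at 6 months and at 14.5 and 16.5 at 12 months, with log2 ratios of 1.60, 1.35 and −0.18. Without immune gene positive cells, the ratios at 6 months turned to −1.78 for H2-Aa, −1.50 for H2-Ab1 and −2.98 for H2-Eb1, while those at P38 were 2.11, 1.52 and 1.64.

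In myeloid cells the same chains stood at 12471 and 14013 CPM for H2-Aa, 11094 and 10828 for H2-Ab1 and 12063 and 14143 for H2-Eb1 at 6 and 12 months. Most myeloid cells held each of them, with shares between 84.4% and 93.8%. In all Krt14+Krt5 high cells H2-Aa was found in 3.52%, 9.92% and 8.51% of cells, H2-Ab1 in 4.92%, 9.45% and 6.46%, and H2-Eb1 in 4.40%, 9.67% and 15.5% at P38, 6 months and 12 months. H2-Eb1 stood at 16.0 CPM in keratinocytes of 12 months and at 4.96 in those of P38, whereas H2-Ab1 stood at 5.95 and 5.16. H2-Eb2, a near copy of H2-Eb1, could share reads with it, and held 0 to 1 UMIs per library in keratinocytes.

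Cd74 (chromosome 18, 60803848 to 60812652, plus strand) had the largest ratio between keratinocyte classes of the 6 members with one at P38. It stood at 77.5 CPM (69.1 to 86.5) in Sostdc1 and Aldh3a1 positive and 14.7 (13.3 to 16.2) in other keratinocytes, a log2 ratio of 2.40 (2.18 to 2.61), and was found in 20.5% and 6.34% of these cells. At 6 months it stood at 244 and 61.6 CPM, and in 18.6% and 18.7% of cells, in classes with medians of 15703 and 590 UMIs per cell. Without immune gene positive cells the ratio at 6 months was −0.73 (−1.13 to −0.35, from 63 and 620 UMIs). At 12 months it stood at 15.3 and 21.0 CPM, a log2 ratio of −0.46 (−0.79 to −0.14), and in 11.9% and 16.1% of cells. In all Krt14+Krt5 high cells Cd74 had 22.9, 87.1 and 19.6 CPM. In myeloid cells it had 38069 CPM at 6 months and 33773 at 12 months, in 96.9% and 91.2% of cells.

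The editor genes differed from each other. H2-DMa, the alpha chain of the editor, stood at 7.67 CPM in Sostdc1 and Aldh3a1 positive and 3.37 in other keratinocytes of P38 (log2 ratio 1.19, 0.55 to 1.79), at 11.7 and 5.14 at 6 months (1.19) and at 8.39 and 4.85 at 12 months (0.79, 0.29 to 1.28). H2-DMa was thus higher in the positive class at every age, alongside the chains at P38 and 6 months and unlike them at 12 months, although without immune gene positive cells the ratios were 0.97, 0.44 and 0.72, and the interval at 6 months then included 0 (−0.56 to 1.33). H2-DMb1, its beta chain, stood at 5.69 and 6.19 CPM at P38, at 14.3 and 18.7 at 6 months and at 12.6 and 12.4 at 12 months. The log2 ratios of H2-DMb1 were −0.12 (−0.82 to 0.51), −0.38 (−0.95 to 0.14) and 0.03 (−0.35 to 0.39), intervals that all include 0. Without immune gene positive cells they were −0.08, −0.69 and 0.02, and the interval at 6 months then lay below 0 (−1.34 to −0.09). H2-DMb1 was found in 8.65%, 8.98% and 14.6% of Krt14+Krt5 high cells, and 1 cell never held more than 6 UMIs. H2-DMb2 is a near copy of H2-DMb1, with 1 UMI in positive and 3 in other keratinocytes of P38, 4 and 10 in those of 6 months, and 3 and 11 in those of 12 months. Reads may be split or lost between these copies, and both values are uncertain.

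Ciita (chromosome 16, 10480059 to 10528418, plus strand) was close to absent from the counts of keratinocytes. Krt14+Krt5 high cells held 2 UMIs of Ciita at P38, 1 at 6 months and 5 at 12 months. Both UMIs of P38 came from Sostdc1 and Aldh3a1 positive cells, and the others held 0 among 26991496 UMIs, a limit of 0.111 CPM (3 counts). Myeloid cells held 64.1 CPM of Ciita at 6 months (38 UMIs) and 82.0 at 12 months (79 UMIs), and 31.2% and 38.5% of them had a UMI. Even in cells with high levels of its targets, Ciita was thus found in a minority of cells at this depth.

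With respect to calls over all genes, 5 of the 6 members with 10 UMIs or more stood at least 2-fold higher in Sostdc1 and Aldh3a1 positive keratinocytes of P38. The count was 5 of 6 in the 6 months library and 0 of 6 in the 12 months library. Of all 13537, 13415 and 13761 genes measured in this way, 6.26%, 4.77% and 5.47% were at least 2-fold higher and 9.62%, 17% and 6.56% at least 2-fold lower. Without immune gene positive cells, 4 of 6 members were higher at P38, 0 at 6 months and 0 at 12 months, beside 6.44%, 4.6% and 5.27% of all genes. The members were chosen on this contrast, so nothing is read from these counts. The median log2 ratio of the members was 1.54, 1.32 and −0.27, and that of all genes 0.01, −0.19 and 0.07.

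Relative to Cd74, the other members stood in different proportions in keratinocytes and in myeloid cells. Per 100 Cd74 UMIs, myeloid cells of 12 months held 41.5 UMIs of H2-Aa, 32.1 of H2-Ab1 and 41.9 of H2-Eb1, and keratinocytes 45.2, 30.4 and 81.6. The intervals of both classes overlapped for H2-Aa and H2-Ab1, whereas H2-Eb1 was higher in keratinocytes (71.7 to 92.9, against 41.0 to 42.7). H2-DMb1 differed more: 63.4 UMIs per 100 of Cd74 in keratinocytes (55.1 to 72.8) and 1.5 in myeloid cells (1.37 to 1.64) at 12 months, and 20.7 and 2.39 at 6 months. H2-DMa stood at 29.2 and 2.18 at 12 months and at 6.95 and 3.24 at 6 months. Dcn and Col1a1 high cells of 12 months held 60 UMIs of H2-DMb1 per 100 of Cd74 (33.2 to 106) and 22.9 of H2-DMa (9.16 to 50.2), which is within counting error of the keratinocytes. At 6 months H2-Aa, H2-Ab1 and H2-Eb1 stood at 34.1, 30.9 and 37.1 per 100 Cd74 UMIs in keratinocytes and at 32.8, 29.1 and 31.7 in myeloid cells. The myeloid genes Tyrobp and Cd207 stood there at 2.92 and 11.1 in keratinocytes and at 2.78 and 7.75 in myeloid cells. The 2 top keratinocytes of 6 months held 880 and 418 class II UMIs, 15 and 6 of Tyrobp and 57 and 20 of Cd207. Without immune gene positive cells the keratinocytes of 6 months held 40.7 of H2-Aa (35.3 to 46.9), 39.1 of H2-Ab1 and 42.2 of H2-Eb1. H2-DMb1 then stood at 38.7, H2-DMa at 10.2 and Cd207 at 11.1. At P38 the keratinocytes held 15.6 of H2-Aa, 22.5 of H2-Ab1, 21.7 of H2-Eb1, 17.2 of H2-DMa and 26.8 of H2-DMb1, with 1.83 of Tyrobp and 0.42 of Cd207.

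**Figure D2:**
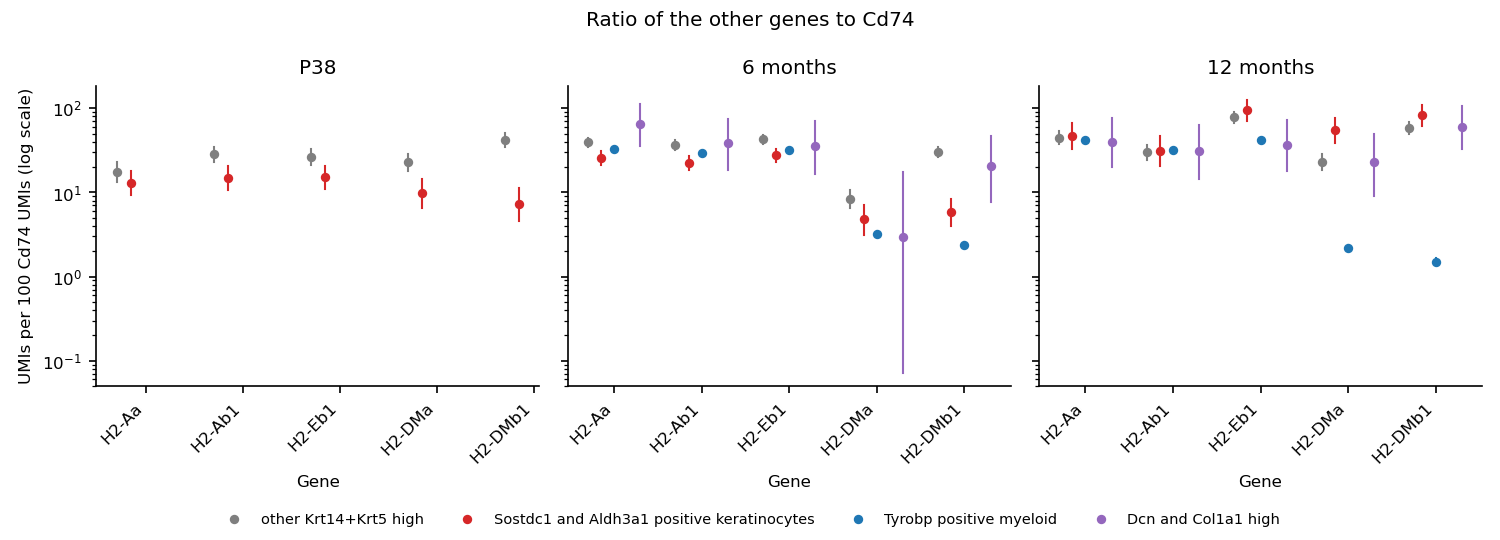
UMIs of 5 members per 100 UMIs of Cd74 (log scale) by class of cells and library, with exact 95% intervals of counting error; classes under 20 cells are not drawn. At 12 months H2-DMb1 lies at 1.5 in myeloid cells and 60 in Dcn and Col1a1 high cells. It lies at 58.8 in the other keratinocytes, which may hold Sostdc1 or Aldh3a1 but not both.

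At P38 a small number of keratinocytes held most of the class II UMIs. Of the 1930 Krt14+Krt5 high cells, 1636 held 0 class II UMIs, 189 held 1 and 24 held 10 or more. These 24 cells held 688 of 1135 UMIs (60.6%), with up to 79 in 1 cell, and 15 cells held 50% of all. Their class II sum ranged from 340.3 to 3632 CPM of the cell, with a median of 1218, against 14.6 CPM over the remaining keratinocytes. At 12 months only 10 keratinocytes held 10 or more class II UMIs, the highest 17, with 9.96% of the UMIs. At 6 months there were 11 such cells, and the highest 2 (880 and 418 UMIs) both held an immune gene UMI.

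**Figure D3:**
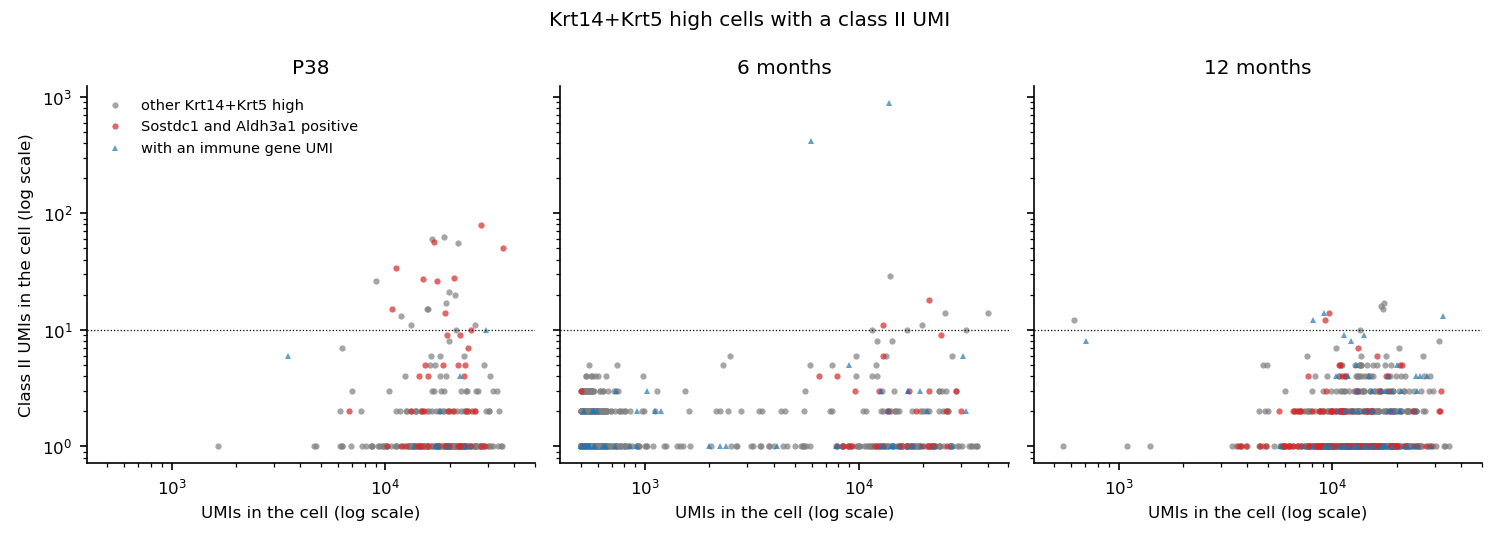
Class II UMIs against all UMIs of each Krt14+Krt5 high cell with a class II UMI (both axes on a log scale), 1 panel per library; colours mark Sostdc1 and Aldh3a1 positive cells, triangles mark cells with an immune gene UMI, and the dotted line stands at 10 UMIs. P38 has 24 cells at or above the line, 1 of them with an immune gene UMI, and the highest cells of 6 months, at 880 and 418 UMIs, are triangles.

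The 24 high cells of P38 held few myeloid transcripts. They were chosen by Krt14 and Krt5 and by the class II sum, so their keratins and Cd74 follow from the choice. All 24 held Cd74 and the epithelial adhesion gene Epcam, 19 held H2-Aa, 17 H2-Ab1, 17 H2-Eb1, 7 H2-DMb1, 5 H2-DMa and 0 Ciita. Tyrobp and Cd207 were each found in 1 of them, and Fcer1g, Ptprc and Lyz2 in 0. Their Krt14 and Krt5 made up a median of 0.82% of UMIs (lowest 0.24%), compared with 1.11% in all Krt14+Krt5 high cells. Sostdc1 and Aldh3a1 were both present in 11 of the 24.

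Across the 1903 Krt14+Krt5 high cells of P38 without an immune gene UMI, Cd74 varied together with the chains (Pearson r across cells 0.59 with H2-Aa, 0.55 with H2-Ab1 and 0.53 with H2-Eb1) and hardly with H2-DMb1 (0.09) or H2-DMa (0.04). At 12 months the first 3 values were 0.32, 0.33 and 0.20 over 2032 cells, and at 6 months 0.07, 0.11 and 0.06 over 2595 mostly shallow cells. These are descriptions across cells of 1 library, which share its depth and free RNA.

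Outside the members, the high cells of P38 were compared with other keratinocytes in genes of the follicle, which were chosen with values of these data known. For this comparison cells with an immune gene UMI were left out, which gave 23 high cells and 1880 others, with medians of 18711 and 15859.5 UMIs. Aldh3a1, an aldehyde dehydrogenase, was found in 65.2% of high and 20.5% of other cells, Krt79, a keratin of the upper follicle, in 78.3% and 44.2%, Gata6, a transcription factor of the junctional zone and sebaceous duct, in 39.1% and 14.2%, and Defb6, a defensin, in 87.0% and 59.9%. The stem cell markers Cd34 and Lgr5 of the bulge and hair germ were found in 0 of 23 high cells, which allows up to 13.0%, and in 29.8% and 25.6% of the others. Sostdc1 was found in 60.9% and 45.9%, with a lower CPM in the high cells (116 against 140, from 50 and 4209 UMIs). Lgr6, of the same marker list, was lower in the high cells, in 13.0% against 18.8% of cells and at 9.30 against 22.6 CPM, from 4 and 681 UMIs. The class I genes B2m and H2-K1 stood at 2868 and 2252 CPM in high and at 1412 and 1250 CPM in other cells. H2-DMb1 was found in 30.4% and 8.46% and H2-DMa in 17.4% and 5.85%, from 10 and 4 UMIs in the high cells.

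**Figure D4:**
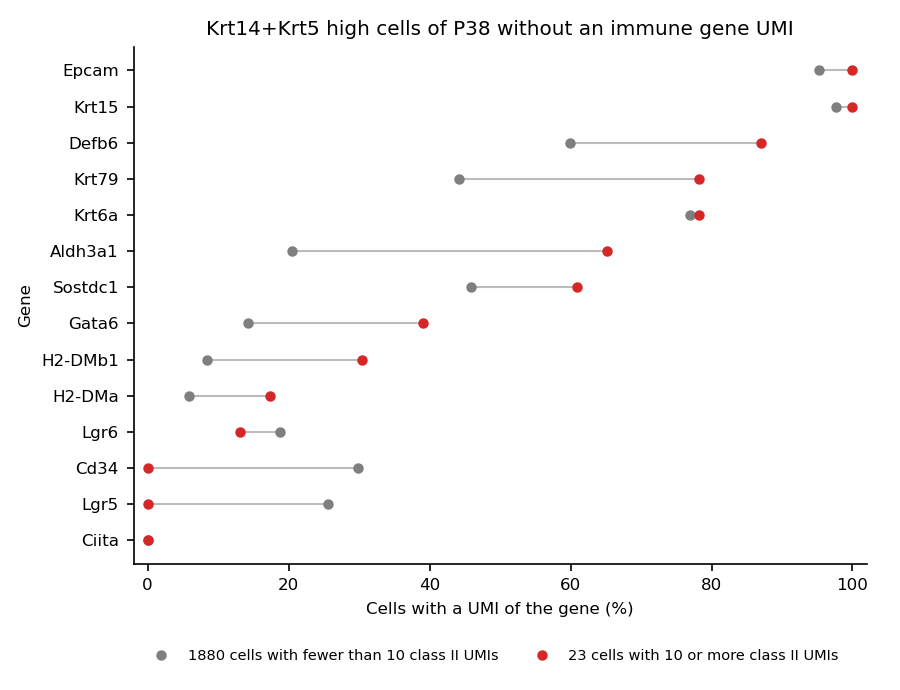
Share of cells with a UMI of each gene (%) in 23 keratinocytes of P38 with 10 or more class II UMIs and in 1880 others, cells with an immune gene UMI left out. The high cells lie to the right for Aldh3a1 and Krt79, to the left for Lgr6 and at 0 for Cd34 and Lgr5.

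Cell groups within the keratinocytes were compared by gates of 2 or more UMIs of a gene (0.2% of UMIs for Krt1 and Krt10, the suprabasal keratins); the gates overlap and are not cell types. At P38 the class II sum was 136 CPM in Gata6 positive cells, 103 in Aldh3a1, 69.8 in Defb6, 64.2 in Krt79, 61.3 in Mki67 (a proliferation marker), 46.7 in Sostdc1, 42.3 in Scd1 (a sebaceous lipid enzyme), 32.6 in Krt6a, 27.5 in Krt1+Krt10, 22.2 in Lgr6 and 18.0 in Wnt16 positive cells. Lgr5 positive cells held 7.13 CPM (5.02 to 9.83) and Cd34 positive cells 5.07 (3.47 to 7.16). The 4 highest gates, Gata6, Aldh3a1, Defb6 and Krt79, are upper follicle genes, and the lowest, Lgr5 and Cd34, are bulge and germ genes. Of the other upper follicle genes, Sostdc1 stood below Mki67 and Lgr6 below the 36.6 CPM of all keratinocytes. Neighbours in this order, such as Defb6, Krt79 and Mki67, had overlapping intervals. The order also rests on few cells. In the Mki67 gate 56 of 105 class II UMIs came from 1 cell, and in the Gata6 gate 79 of 318 did. The cell of 79 UMIs was also in the Aldh3a1, Defb6, Sostdc1 and Scd1 gates.

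The order was not the same at the other ages. At 12 months the gates lay between 14.9 (Krt6a) and 52.4 CPM (Krt1+Krt10), with Cd34 at 19.2, Lgr5 at 23.8 and Gata6 at 44.1. Again Cd34 and Lgr5 were among the lowest. Of the upper follicle gates, Defb6 stood at 48.4 CPM, Krt79 at 46.0, Aldh3a1 at 43.1, Lgr6 at 41.2 and Sostdc1 at 36.9. All upper follicle gates were thus below the 50.4 CPM of all keratinocytes, Sostdc1 the furthest. At 6 months Krt1+Krt10 high cells held 429 CPM, or 454 without immune gene positive cells, from cells with a median of 550.5 UMIs. Lgr5 and Cd34 positive cells held 9.48 and 11.5 CPM. Of the upper follicle gates, Krt79 stood at 97.8, Gata6 at 84.6, Defb6 at 72.4, Aldh3a1 at 51.2 and Lgr6 at 50.2 CPM. These lay below the 176 CPM of all keratinocytes of that age. Sostdc1 stood at 296 CPM, and at 32.2 without immune gene positive cells. Depth moved with these values at 6 months, and its part was not tested.

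**Figure D5:**
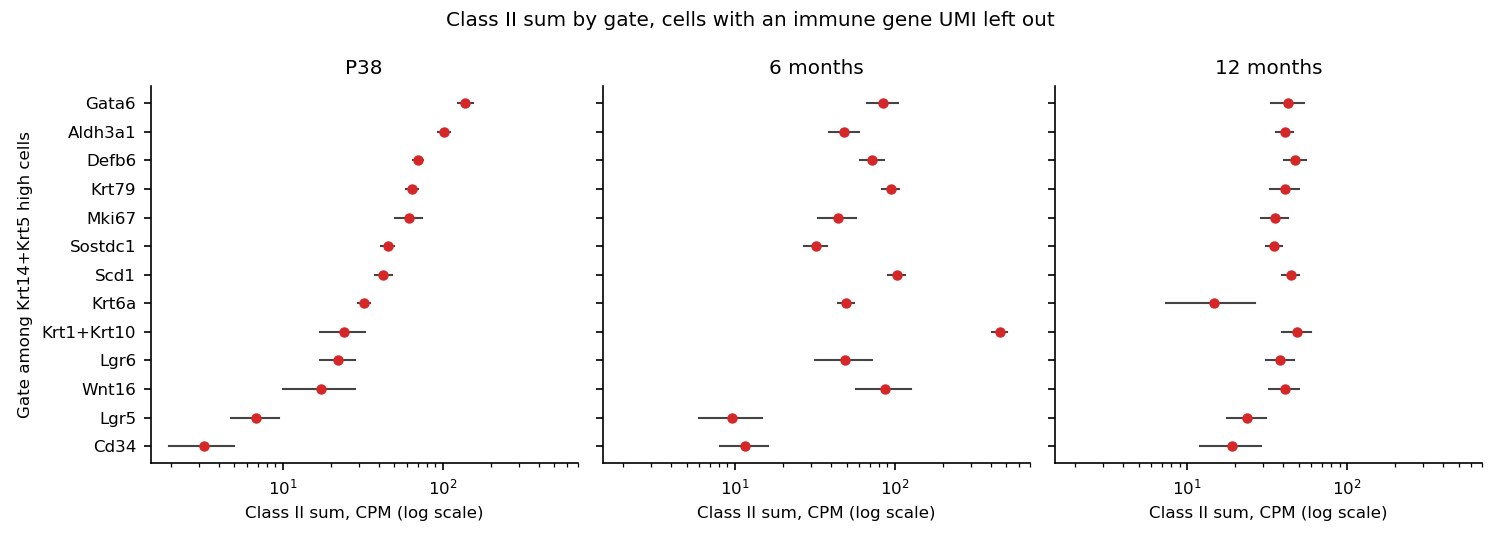
Class II sum in CPM (log scale) of Krt14+Krt5 high cells by gate, cells with an immune gene UMI left out, 1 panel per library, with exact Poisson 95% intervals. At P38 the gates run from 3.21 (Cd34) to 139 (Gata6), and Cd34 and Lgr5 are low at every age.

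Other genes of the pathway were read from lists, by how many stood 2-fold apart between Sostdc1 and Aldh3a1 positive and other keratinocytes. The shares of all genes given above are the background, and single genes named from the loading and target lists were chosen after their values were seen. Of the genes for loading and editing (cathepsins, Ifi30, Lgmn, ligases, H2-O and copies), 0 of 6 measured were higher and 1 lower at P38 (Ctsd, a lysosomal protease, at 184 and 420 CPM), 1 higher and 4 lower of 8 at 6 months, and 0 higher and 1 lower of 7 at 12 months (Ctsl, at 92.8 and 209). The list medians were −0.38, −0.83 and 0.16. At 6 months the cathepsins Ctsl, Ctsb and Ctsd and the ligase March8 were the lower genes and H2-DMb2 the higher, from 4 and 10 UMIs. Without immune gene positive cells, 0 of 7 measured were higher and 5 lower at this age.

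The factors that bind class II promoters were present in keratinocytes at similar levels in both classes. 0 of the 7 were 2-fold apart in any library, and the list medians were −0.08, −0.25 and 0.13. Rfx5, the DNA-binding subunit of RFX, stood at 15.3 CPM in positive and 12.6 in other cells of P38, at 4.76 and 9.01 at 6 months and at 8.84 and 8.11 at 12 months. Its partners Rfxap and Rfxank stood at 18.8 and 23.5, and at 3.96 and 5.19 CPM at P38. The NF-Y subunits Nfya, Nfyb and Nfyc stood at 15.1 and 16.1, at 53.7 and 47.2, and at 17.8 and 20.3 CPM at P38, and Creb1 at 28.7 and 28.1.

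Genes of interferon gamma signalling also lay within 2-fold in all 3 libraries (0 of 7 apart, medians 0.26, 0.46 and −0.23). At P38 the receptor genes Ifngr1 and Ifngr2 stood at 53.7 and 41.3, and at 25.5 and 21.3 CPM, the kinases Jak1 and Jak2 at 170 and 168, and at 43.3 and 32.5, Irf1 at 105 and 132 and the inhibitor Socs1 at 71.5 and 53.3. Of 18 interferon gamma targets, 14 were measured at P38, of which Gbp6 (a GTPase, log2 ratio 1.40 from 6 and 16 UMIs) and Psmb10 (an immunoproteasome subunit, 1.10) were higher and the chemokine gene Cxcl9 lower (−1.71). At 6 months 4 of 16 were higher (Cxcl9, Cxcl10, Gbp6 and Psmb10) and 3 lower (Gbp4, Iigp1 and Ubd), and at 12 months 0 of 14 were higher and 1 lower (Iigp1, with 0 and 25 UMIs).

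The 5 class I genes were all measured and lay within 2-fold in each library, with medians of 0.22, 0.25 and 0.26. B2m, the class I light chain, stood at 1873 and 1370 CPM at P38, at 1673 and 1332 at 6 months and at 1902 and 1423 at 12 months. H2-K1 stood at 1525 and 1230 CPM at P38, H2-D1 at 1854 and 1638, H2-Q4 at 95.5 and 93.1 and H2-T23 at 157 and 135. Class I genes are near copies of each other, and reads shared between them may be lost or misassigned.

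Costimulatory and inhibitory genes were scarce. Cd80, Cd40 and Pdcd1lg2 stayed under 10 UMIs in each library. Cd274, the inhibitory ligand PD-L1, was lower in the positive class in every library, at 1.73 and 3.70 CPM at P38 (7 and 100 UMIs), at 1.30 and 5.21 at 6 months (3 and 74) and at 0.75 and 3.27 at 12 months (5 and 66), with log2 ratios of −1.0, −1.79 and −2.0. It was the only listed gene at least 2-fold apart in the same direction in all 3 libraries, and at P38 the difference was under 2-fold without immune gene positive cells. Icosl, a costimulatory ligand, stood at 5.94 and 7.15 CPM at P38 and at 3.00 and 0.84 at 12 months. Cd86 stood at 5.63 and 0.63 CPM at 6 months (13 and 9 UMIs), and at 0 and 9 UMIs without immune gene positive cells.

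Genes of like pattern were looked for across keratinocytes without an immune gene UMI, by the median over the 3 libraries of the correlation with the class II sum. The 10 highest of 9912 genes, H2-K1, Calm4, H2-M2, B2m, Ccl27a, H2-D1, Ly6d, Clca3a2, Krt79 and Arhgdib, had median r of 0.11 to 0.13, and 0 genes passed 0.2. So weak a correlation in sparse counts is no finding. In P38 alone 16 of 11267 genes passed 0.2, led by Rassf10 (0.33), Ly6e (0.29) and H2-M2 (0.28). After thinning, 1 gene did, Rgs4 (0.20).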

How the data were processed

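Libraries were made by the study with the 10X Genomics 3′ version 3 kit from dissociated back skin. The authors aligned reads to mm10 and deposited raw UMI counts per gene and barcode, as made by Cell Ranger (version 6.1.2 in the submitters' processing notes and, per the file headers, 6.1.2 for P38 and 6.0.0 for 6 and 12 months). The depth was 34646663, 24698719 and 38910431 UMIs in kept cells of P38, 6 months and 12 months. The number of mice per library is not given in the sources used here. Members and gene lists were chosen with earlier results of these data known.

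For each class of cells the counts were added up and scaled to CPM, with exact 95% intervals, and shares of cells were also computed after thinning to 2000 UMIs (Python 3.11.15, numpy 2.4.6, scipy 1.17.1, pandas 2.3.3, matplotlib 3.10.9). Over all genes with 10 UMIs or more in both classes together, 0.5 was added to each count and a 2-fold ratio counted as called, with no test, since each age has 1 library. These ratios were checked on counts drawn with known folds. By rule the text names the members, all genes of lists of 7 or fewer, of longer lists those 2-fold apart in the same direction in all 3 libraries, and the 10 genes of most like pattern among those in 2% of cells or more. Other genes named were chosen after their values were seen. The values of 1 listed gene are not reported here. Alternatives changed the gates, the cell filter, the depth and the immune gene positive cells.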

Additional observations from a re-analysis of the deposited data

Results flagged for a closer look

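The class II sum differed in direction between ages. The log2 ratio of Sostdc1 and Aldh3a1 positive over other keratinocytes was −0.35 at 12 months, against 2.13 at P38 and 1.67 at 6 months. The difference was not tested, as each age is 1 library, and at 6 months the ratio was −1.49 without 1 cell.

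Class II transcripts were also present in Krt14+Krt5 high barcodes that the cell filter had left out. These 236, 411 and 970 barcodes held 230.3 CPM at P38 (218 to 243), 304 at 6 months (294 to 314) and 311 at 12 months (296 to 326), above the kept keratinocytes. Barcodes with 5000 genes or more held 253, 313 and 434 CPM, with up to 789, 1127 and 1355 class II UMIs in 1 barcode. Without barcodes with an immune gene UMI these values were 73.9, 26.1 and 39.9 CPM. At P38 the 100 remaining barcodes included 6 with 10 or more class II UMIs, of which 3 held both Sostdc1 and Aldh3a1.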

How the results depend on the processing

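With 1 library per age, no value could be set against the spread between animals, and age, sex, hair cycle stage and depth cannot be told apart. No paired analysis was possible because each age is 1 library. Depth limits the 6 months library most, where 1673 of 2751 keratinocytes were too shallow to be thinned to 2000 UMIs. Leaving out the keratinocyte with the most class II UMIs was chosen after seeing the data. For P38 no ratio of Tyrobp positive cells was computed, with 5 such cells. Of the values under the alternatives, 31 moved by less than their counting interval, 47 moved by more and 5 changed sign. Except where a cell is named, the cause was not tested.

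The log2 ratio of Sostdc1 and Aldh3a1 positive over other keratinocytes at P38 (2.13) was 1.92 with a keratin gate of 1%, 1.18 over every barcode, 2.52 with 2 UMIs of each gene, 1.27 with either gene and 1.86 without the top cell. At 6 months (1.67) it changed sign to −0.52 with the 1% gate, −1.30 without immune gene positive cells, −1.84 with 2 UMIs of each gene and −1.49 without the top cell, and was 2.76 with 1000 genes or more, 2.41 after thinning and 0.65 with either gene. At 12 months (−0.35) it changed sign to 1.01 with a gate of 0.1%, through 1 cell of 803 class II UMIs, and was −1.37 over every barcode and −0.56 with either gene.

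The log2 ratio of Tyrobp positive cells over keratinocytes at 6 months (8.71) was 8.63 with the 0.1% gate, 9.89 with 1%, 9.51 without immune gene positive cells, 7.49 over every barcode, 9.31 with 1000 genes, 8.87 after thinning and 9.0 with 3 Tyrobp UMIs. At 12 months (10.50) it was 9.62, 10.37, 10.62 and 9.53 under the first 4 of these, 10.81 after thinning and 10.79 with 3 Tyrobp UMIs.

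The share of keratinocytes with a class II UMI was 4.04%, 6.12% and 7.59% after thinning and 3.16%, 3.64% and 6.04% for 3 UMIs or more. It was 22.97% at 6 months with 1000 genes, and at 12 months 36.1% with the 1% gate and 29.1% over every barcode. The class II sum at P38 (36.6 CPM) was 22.5 with the 1% gate, 65.5 over every barcode, 40.4 after thinning and 34.1 without the top cell. At 6 months (176) it was 189.6 with the 0.1% gate, 70.1 with 1%, 101 without immune gene positive cells, 230.5 over every barcode, 117 with 1000 genes, 160.5 after thinning and 123 without the top cell. At 12 months (50.4) it was 97.9 with the 0.1% gate, 46.2 without immune gene positive cells, 95.1 over every barcode and 44.5 after thinning.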

Other observations

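Myeloid cells, in which class II levels were high, also held transcripts of other cell types. The 7 keratinocyte markers summed to 4375 CPM at 6 months and 1829 at 12 months in them, and the 4 fibroblast markers to 2034 and 506 CPM, while the 4 B cell markers were at 0 in both libraries. Cells with 0.1% to 0.2% Krt14 and Krt5 UMIs, just under the keratinocyte gate, numbered 48, 146 and 130 and held 41, 376 and 1456 class II UMIs. At 12 months 10 of them had an immune gene UMI and held 1382 of the 1456.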
